A study of Rattus norvegicus with 6 samples.

Results

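The immediate early and AP-1 genes examined here were the 10 rows of the deposited count table named Fos, Fosb, Fosl1, Fosl2, Jun, Junb, Jund, Egr1, Atf3 and Gadd45b, out of 33566 genes listed. All 10 passed the filter on low counts and were among the 14603 genes tested. The samples were 6 poly(A) RNA-seq libraries of primary rat brain microvascular endothelial cells (rBMECs), which line the capillaries of the brain and were isolated from SD rats 18 to 22 days of age and used after one passage. The labels name the cortex as the source and the study's methods the forebrain. The Hcy group comprised 3 libraries from cells given homocysteine for 24 h, and the vehicle (Veh) group comprised 3 libraries from cells given water without it. The labels state a dose of 100 μM, and the same protocol names a prepared Hcy solution of 50 μM, so the dose cannot be settled from them. The comparison asks which of these transcripts differ after a day of Hcy exposure.

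AP-1 is a dimer of basic leucine zipper proteins, in which a JUN protein pairs with another JUN protein, a FOS protein or an ATF protein and binds a short palindromic DNA element. Fos, Fosb and Egr1 are textbook immediate early genes, which growth factors, calcium entry and mechanical or oxidative stress induce quickly and without new protein synthesis, and whose mRNAs are short-lived. Jund is expressed more steadily, and Atf3 is a stress-induced member of the ATF family. Gadd45b encodes a small stress sensor that binds MAP kinase kinases and takes part in active DNA demethylation.

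Of the 10 genes, Gadd45b and Fosl1 were lower in Hcy and passed the test, and the other 8 did not. Gadd45b fell by 33.8% and Fosl1, the FOS family transcript with the highest level per length in these cells, fell by 23.0%. Egr1, Fos and Fosb had estimates in the opposite direction, 54.8%, 46.2% and 60.4% above Veh, but their Veh libraries were widely spread and none of them passed. Atf3, Junb and Jund had fold changes of 1.03, 1.03 and 0.976. A gene was called when the p of edgeR's quasi-likelihood F-test, adjusted over all genes tested by the Benjamini-Hochberg method, was at most 0.05. By this rule 2.34% of all genes tested were called, 1.32% as higher and 1.01% as lower in Hcy. When the difference also had to reach 1 on the log2 scale in either direction, 0 of the 10 genes were called, against 0.486% of all genes tested. At an unadjusted p under 0.05, 5 of the 10 passed, against 13.4% of all genes, and by DESeq2 the same rule with the fold threshold also called 0.

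The libraries held 14024997 to 16764584 counts. The labelled cell type was checked with endothelial markers, of which 12 of the 14 listed were in the table. Pecam1 and Abcb1a were not, and were not analysed here. Vwf, Cdh5, Tie1 and Kdr were abundant, whereas Cldn5, a defining marker of the brain endothelium, had 0 counts in all 6 libraries. In the study, Claudin-5 protein was followed by Western blot in rBMECs, and purity was checked by CD31 staining. Why Cldn5 had 0 counts here was not tested. Summed endothelial markers lay at 7827 to 9044 CPM (a library's counts scaled to a common total with edgeR's TMM factors) in Veh and at 9456 to 9883 CPM in Hcy, and 0 of the 11 tested were called. The sum did not describe each marker, since Tek, at means of 289.3 CPM in Veh and 244.3 CPM in Hcy, and Slco1a4, at 5.17 and 3.57 CPM, were lower in each Hcy library than in the Veh libraries. Summed smooth muscle markers lay at 1120 to 1348 CPM in Veh and at 673 to 702 CPM in Hcy, and 3 of the 4 (Acta2, Tagln and Cnn1) were called as lower. Most of this sum was Tagln, at means of 1071 CPM in Veh and 582 CPM in Hcy. Myh11, at 15 to 25 counts, overlapped between the groups and was not called (log2 fold change -0.04, adjusted p = 0.981 from edgeR). Pericyte markers summed to 2.79 to 3.88 CPM in Veh and 3.94 to 6.38 CPM in Hcy, with 0 of 6 called. Of these, Rgs5 (1 to 9 counts) and Cspg4 (3 to 16 counts) were higher in each Hcy library than in the Veh libraries. Kcnj8, at 4 to 13 counts, was lower in each. Fibroblast markers summed to 57.5 to 83.9 CPM in Veh and 35.7 to 57.8 CPM in Hcy, with 0 of 3 called. Neuronal markers summed to 5.23 to 7.18 CPM in Veh and 6.85 to 9.77 CPM in Hcy, with Rbfox3 and Snap25 at 0 counts in every library, Tubb3 at 65 to 108 counts and Syt1 at 17 to 44 counts, higher in each Hcy library than in the Veh libraries. Microglial markers summed to 1.47 to 2.01 CPM in Veh and 0.862 to 1.37 CPM in Hcy, with Cx3cr1 and P2ry12 at 0 and Tmem119, at 6 to 16 counts, lower in each Hcy library. Astrocyte markers summed to 0.238 to 1.11 CPM in Veh and 0.269 to 0.537 CPM in Hcy, with Aqp4 and Slc1a2 at 0, and oligodendrocyte markers, mostly Mog, to 11.2 to 11.3 CPM in Veh and 10.6 to 12.2 CPM in Hcy. In these 4 lists, 0 genes were called. The part of these markers in the results that follow was not tested. In bulk RNA, fewer cells of one type and less RNA per cell cannot be told apart. On the first principal component of all expressed genes the Hcy and Veh libraries were apart, and on the second, which held 26.2% of the variance, Veh replicate 3 stood at 30.4 and the other two Veh libraries at -15.9 and -19.0.

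The promoters of the 2 called genes are shown beside that of Jund, the member with the highest mean level per length. The sequences are from RefSeq (GRCr8), cover the 250 bases before the annotated start, and are written 5′ to 3′ on the strand of the gene, with every match to a searched motif in capitals. Of the 10 genes, 7 matched the RefSeq promoter table by symbol, and Fos, Jun and Atf3 did not.
Gadd45b promoter, GRCr8 chr7:9430719-9430968 (minus strand): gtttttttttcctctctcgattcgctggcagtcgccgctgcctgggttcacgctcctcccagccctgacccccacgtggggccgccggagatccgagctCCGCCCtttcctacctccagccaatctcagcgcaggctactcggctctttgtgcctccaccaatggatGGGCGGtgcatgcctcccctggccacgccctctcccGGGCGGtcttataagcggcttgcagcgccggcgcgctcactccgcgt
Fosl1 promoter, GRCr8 chr1:212183635-212183884 (plus strand): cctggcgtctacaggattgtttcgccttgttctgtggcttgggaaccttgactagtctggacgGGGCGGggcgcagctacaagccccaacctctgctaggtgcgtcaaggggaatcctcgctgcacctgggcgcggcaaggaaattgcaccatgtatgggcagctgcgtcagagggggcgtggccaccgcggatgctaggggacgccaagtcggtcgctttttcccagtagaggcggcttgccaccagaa
Jund promoter, GRCr8 chr16:18769772-18770021 (minus strand): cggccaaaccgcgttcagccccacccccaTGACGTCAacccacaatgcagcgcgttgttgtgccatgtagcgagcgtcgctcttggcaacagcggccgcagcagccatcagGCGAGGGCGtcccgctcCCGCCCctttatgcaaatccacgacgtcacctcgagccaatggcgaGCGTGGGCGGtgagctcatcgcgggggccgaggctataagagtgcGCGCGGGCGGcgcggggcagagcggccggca

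The motifs were searched on both strands of the 250 bases, and shares refer to 33465 RefSeq promoters of the same length. The GC box (GGGCGG), bound by SP1-type factors, was present in 4 of the 7 windows, those of the called genes Fosl1 and Gadd45b and of Fosl2 and Jund, which were not called, and 30.5% of all promoters hold it. The cAMP response element (TGACGTCA), held by 1.59% of promoters, was found in the Jund window, 221 to 214 bases before the start. The EGR site (GCGNGGGCG; 4.29% of promoters) was found in the windows of Fosl2 and Jund, in the latter at 3 places, 2 of which overlap a GC box. The CArG box, to which serum response factor binds, was present at 2 places in the Egr1 window, 105 to 96 and 83 to 74 bases before the start, and in 1.5% of all promoters. The AP-1 site (TGANTCA; 6.34% of promoters) and the NF-kB site (6.33%) were found in 0 of the 7 windows. The letters of the TATA box (TATAAA; 12.9%) were found in 2 of the 7 windows, those of Junb and Fosb. The Junb match lies 49 to 44 bases before the start on the strand of the gene. The Fosb match lies 180 to 175 bases before the start on the opposite strand. Variants of these letters were not searched. These matches describe letters in a window and are not evidence of binding.

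Gadd45b was the member with the smallest p. The table lists it at chr7:11646269-11648322 (minus strand). The deposited positions carry no build, and those on chromosome 1 reach 282724300, past the end of that chromosome in mRatBN7.2, which the processing notes name. They are therefore given as listed and were not matched to the GRCr8 positions of the promoters. Gadd45b was at 85.8, 82.7 and 90.9 CPM in Veh replicates 1, 2 and 3 and at 62.4, 52.9 and 56.6 CPM in Hcy replicates 1, 2 and 3. Every Hcy library was below every Veh library. The mean was 86.5 ± 4.17 CPM (SD, n = 3) in Veh and 57.3 ± 4.81 CPM (SD, n = 3) in Hcy. On the log2 scale Hcy was at -0.59 relative to Veh, with a standard error of 0.09 and a 95% interval of -0.79 to -0.40 (edgeR, adjusted p = 0.0114). Its call was lost without Hcy replicate 2 (adjusted p = 0.0594 from edgeR) and without Hcy replicate 3 (adjusted p = 0.0786), whereas its log2 difference ranged from -0.66 to -0.54 as each library was dropped. The summed smooth muscle markers, mostly Tagln, were lower in the same 3 libraries, and their part in this result was not tested. None of the 3 genes listed with it passed. Gadd45a, which encodes a stress and DNA damage sensor of the same structure, was at 147 ± 7.63 CPM (SD, n = 3) in Veh and 171 ± 10.3 CPM (SD, n = 3) in Hcy (log2 fold change 0.22, adjusted p = 0.225 from edgeR). Its Hcy libraries all lay above its Veh libraries, as for 10.8% of all genes tested. Without Veh replicate 3, where edgeR called 6.67% of all genes, Gadd45a passed as higher (adjusted p = 0.0468). Gadd45g had a log2 fold change of -0.04, and Gadd45gip1, whose product binds GADD45 gamma, one of -0.18.

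**Figure D1:**
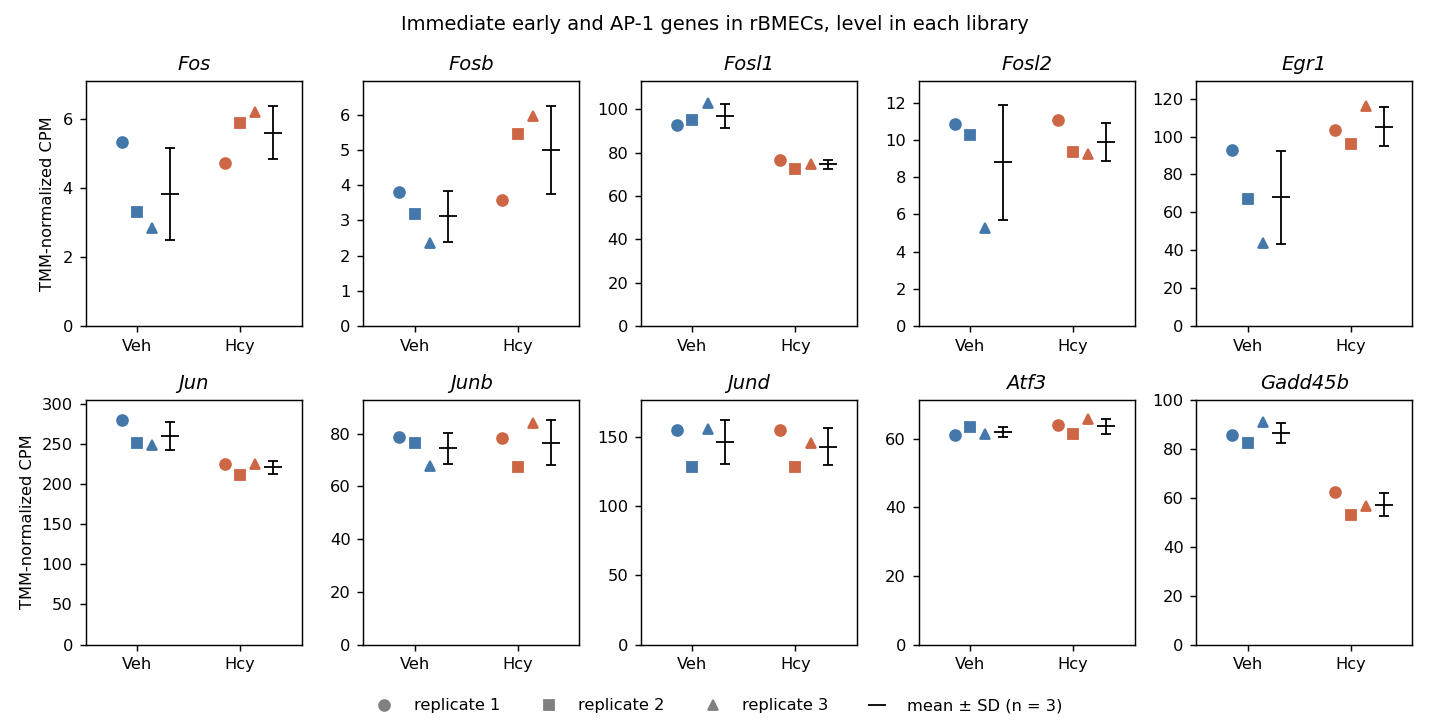
TMM-normalized CPM of the 10 genes in each of the 6 libraries, with Veh in blue and Hcy in orange, marker shape for the replicate number and bars for the mean and SD of 3 libraries. Gadd45b, Fosl1 and Jun have all Hcy points below the Veh points, and Egr1 has them above, with Veh libraries from 43.9 to 92.8 CPM.

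Among the FOS family genes, Fosl1 encodes FRA-1, a FOS protein that lacks the C-terminal transactivation domain of c-Fos. The table lists it at chr1:220826560-220835066 (plus strand). Fosl1 was at 92.6, 95 and 103 CPM in Veh replicates 1, 2 and 3 and at 76.7, 72.5 and 74.5 CPM in Hcy replicates 1, 2 and 3. The groups did not overlap, and the Hcy libraries lay closer together than the Veh libraries. The mean was 96.9 ± 5.48 CPM (SD, n = 3) in Veh and 74.6 ± 2.11 CPM (SD, n = 3) in Hcy. This is a log2 difference of -0.38 with a standard error of 0.07 and a 95% interval of -0.55 to -0.21 (edgeR, adjusted p = 0.0364). The size of the difference hardly moved when a library was left out, with log2 fold changes from -0.41 to -0.33. The call was kept without Veh replicate 3 (adjusted p = 0.0128 from edgeR) and lost without Hcy replicates 1, 2 and 3 (adjusted p = 0.136, 0.164 and 0.183) and without Veh replicates 1 and 2 (adjusted p = 0.0870 and 0.101). With the replicate number as a block it was also lost (adjusted p = 0.0733 from edgeR).

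Fos, on chromosome 6 from 109300433 to 109303299, encodes c-Fos. It was at 5.34, 3.31 and 2.84 CPM in Veh replicates 1, 2 and 3 and at 4.74, 5.91 and 6.21 CPM in Hcy replicates 1, 2 and 3. Hcy replicate 1 lay below Veh replicate 1, so the groups overlapped. For Fos the fit gave a log2 difference of 0.55 (95% interval -0.03 to 1.13, edgeR adjusted p = 0.409), which was 0.87 without Veh replicate 1 and 0.38 without Veh replicate 3. Fosb, on chromosome 1 from 80214494 to 80221710, encodes the FOS protein closest to c-Fos in domain layout. It was at 3.80, 3.19 and 2.35 CPM in Veh and at 3.59, 5.44 and 5.97 CPM in Hcy, with Hcy replicate 1 again inside the Veh range. For Fosb it gave 0.68 (95% interval 0.09 to 1.27, edgeR adjusted p = 0.284). Both genes were thinly covered, with 41 to 104 counts for Fos and 34 to 100 for Fosb. At the lowest of these counts, counting error alone amounted to 15.6% of the value for Fos and 17.1% for Fosb, against a spread between Veh libraries of 34.7% and 23.3% of the mean and between Hcy libraries of 13.8% and 25.0%. Neither gene passed.

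Fosl2, on chromosome 6 from 25598936 to 25616995, encodes FRA-2. It was at 10.9, 10.3 and 5.26 CPM in Veh replicates 1, 2 and 3 and at 11.1, 9.34 and 9.25 CPM in Hcy replicates 1, 2 and 3. A single library, Veh replicate 3, stood apart from the other five. Its log2 fold change was 0.16 (95% interval -0.40 to 0.72, adjusted p = 0.851 from edgeR) with all libraries and -0.10 without Veh replicate 3, so the sign rested on that library.

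**Figure D2:**
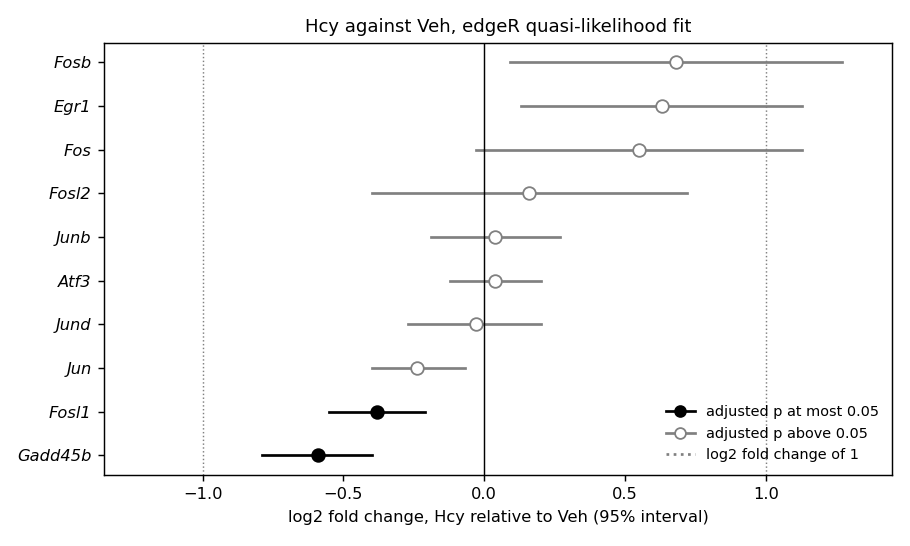
Log2 fold change in Hcy relative to Veh for the 10 genes, with the 95% interval from the edgeR fit. Filled points mark an adjusted p of at most 0.05 and dotted lines a log2 fold change of 1 in either direction. Gadd45b at -0.59 and Fosl1 at -0.38 are the 2 filled points, and the intervals of Fosb, Egr1 and Fos are the widest beside that of Fosl2.

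Of the JUN family genes, Jun encodes c-Jun, the partner with which FOS proteins form the classical AP-1 dimer. Jun, on chromosome 5 from 114011189 to 114014277, was at 279, 252 and 249 CPM in Veh replicates 1, 2 and 3 and at 226, 212 and 225 CPM in Hcy replicates 1, 2 and 3. All 3 Hcy libraries lay below the lowest Veh library. The fitted difference was -0.24 on the log2 scale (standard error 0.07, 95% interval -0.40 to -0.07), and Jun did not pass (edgeR adjusted p = 0.173). Without Veh replicate 3 the log2 fold change was -0.27 and Jun passed (adjusted p = 0.0322), while in the fits that left out another library its adjusted p reached 0.464.

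Junb, on chromosome 19 from 26092974 to 26094756, encodes a JUN protein with weaker transactivation than c-Jun. It was at 78.9, 76.5 and 67.8 CPM in Veh replicates 1, 2 and 3 and at 78.4, 67.2 and 84.1 CPM in Hcy replicates 1, 2 and 3. The ranges covered each other, with a log2 fold change of 0.04 (95% interval -0.19 to 0.27, adjusted p = 0.917 from edgeR). Jund, on chromosome 16 from 20485029 to 20486707, encodes the JUN protein that resting cells express steadily. It was at 156, 129 and 156 CPM in Veh and at 155, 129 and 146 CPM in Hcy. Jund was at -0.03 on the log2 scale (95% interval -0.27 to 0.20, edgeR adjusted p = 0.931). The intervals of both genes reach no further than 0.27 from 0, and the sign of both turned when single libraries were left out.

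The levels of the 10 genes were ordered per length. In Veh, the mean level in CPM per kb of the listed gene length was 87.5 for Jund, 84.2 for Jun, 66.5 for Gadd45b, 58.3 for Fosl1, 41.7 for Junb, 21.7 for Egr1, 21.3 for Atf3, 11.8 for Fosl2, 2.41 for Fos and 0.832 for Fosb. The Veh ranges of Jund and Jun overlapped, as did those of Egr1 and Atf3, and every other neighbour in this order was apart from the next. In Hcy the order was the same except that Gadd45b, at 44.1, came after Fosl1, at 44.8, with overlapping ranges, and the Gadd45b and Junb ranges overlapped as well. Jund and Jun no longer overlapped in Hcy, and Egr1, at 33.6, lay above Atf3, at 21.9, in every Hcy library.

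The FOS family sum, in CPM per kb, was 74.7, 73.9 and 71.5 in Veh replicates 1, 2 and 3 and 64.9, 61.3 and 62.8 in Hcy replicates 1, 2 and 3. Every Hcy library was lower, by 10.3 on average (exact two-sided permutation test, p = 0.1, the smallest that 3 against 3 libraries allow). Fosl1 made up 74.6%, 77.3% and 86.7% of this sum in the Veh libraries and 71.0%, 71.1% and 71.4% in the Hcy libraries. The Fos share was 4.50%, 2.82% and 2.50% in Veh and 4.59%, 6.07% and 6.22% in Hcy. The Fosl2 share was 19.6%, 18.7% and 9.89% in Veh and 22.9%, 20.5% and 19.8% in Hcy. The Fosb share was 1.13% ± 0.241 (SD, n = 3) in Veh and 2.13% ± 0.572 (SD, n = 3) in Hcy. The Fosl1 share was lower in every Hcy library, and the shares of Fos, Fosl2 and Fosb were higher. Each gave an exact permutation p of 0.1, and the Fos and Fosl2 shares of Veh replicate 1 lay only just below the lowest Hcy values. Fosl2 is listed with a length of 744 bases although the gene spans 18060, so its per-length level may be too high. With Fosl2 left out, Fosl1 made up 94.7% ± 1.81 (SD, n = 3) of the FOS sum in Veh and 90.2% ± 1.68 (SD, n = 3) in Hcy, and the groups did not overlap (exact permutation p = 0.1). The ratio of Fos to Fosl1 in CPM per kb was 0.0419 ± 0.0165 (SD, n = 3) in Veh and 0.0791 ± 0.0125 (SD, n = 3) in Hcy, without overlap (exact permutation p = 0.1).

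The JUN family sum was 213 ± 13.3 CPM per kb (SD, n = 3) in Veh and 200 ± 14.6 CPM per kb (SD, n = 3) in Hcy, and the groups overlapped (exact permutation p = 0.4). Within it, Jun accounted for 39.8%, 40.5% and 38.1% in the Veh libraries and for 34.9%, 37.5% and 35.2% in the Hcy libraries. The Jun share was therefore lower in all Hcy libraries (exact permutation p = 0.1), while the shares of Junb and Jund overlapped between the groups. The ratio of the FOS sum to the JUN sum was 0.344 ± 0.0204 (SD, n = 3) in Veh and 0.316 ± 0.0166 (SD, n = 3) in Hcy, with overlapping groups (exact permutation p = 0.2). In all, 12 such sums, shares and ratios were compared, which share their transcripts. Adjusted over them, the p of 0.1 became 0.15, so none passed, and the smallest p of this design could not pass on its own.

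**Figure D3:**
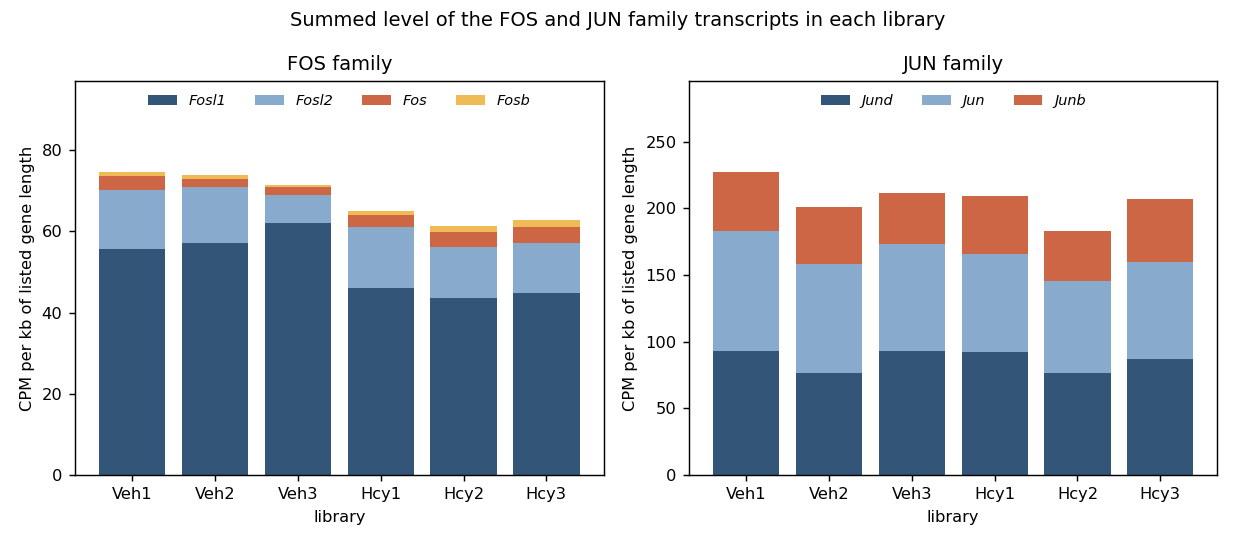
Stacked level of the FOS family (left) and JUN family (right) transcripts in each library, in CPM per kb of the listed gene length. Fosl1 forms the largest part of the FOS sum in every library and the FOS sum is lower in the 3 Hcy libraries, whereas Fos and Fosb together are thin slices on top.

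Egr1, on chromosome 18 from 27657628 to 27661429, encodes a zinc finger factor that is induced alongside Fos through serum response factor and its partners. It was at 92.8, 66.8 and 43.9 CPM in Veh replicates 1, 2 and 3 and at 104, 95.9 and 116 CPM in Hcy replicates 1, 2 and 3. The groups did not overlap, but Veh replicate 1 lay only just below the lowest Hcy library. The spread between libraries was 36.0% of the mean in Veh and 9.71% in Hcy, with 635 to 1946 counts behind each value. Egr1 had a log2 difference of 0.63 (standard error 0.22, 95% interval 0.13 to 1.13) and did not pass (edgeR adjusted p = 0.234). The difference was 0.40 without Veh replicate 3 (adjusted p = 0.104) and 0.93 without Veh replicate 1 (adjusted p = 0.0581), so the size of the difference moved with the Veh libraries kept.

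Atf3, on chromosome 13 from 109817728 to 109849632, had the smallest spread between Veh libraries of the 10 genes. It was at 61.1, 63.6 and 61.3 CPM in Veh and at 64.1, 61.4 and 65.7 CPM in Hcy. The ranges overlapped and the spread was 2.23% of the mean in Veh and 3.43% in Hcy. Its log2 difference was 0.04 (standard error 0.07, 95% interval -0.12 to 0.20, edgeR adjusted p = 0.873).

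The groups did not overlap in 4 of the 10 genes, 3 of them lower in Hcy (Gadd45b, Fosl1 and Jun) and 1 higher (Egr1), where 20.1% of all genes tested did not overlap, 9.27% lower and 10.8% higher. The median log2 fold change of the 10 genes was 0.04, beside -0.02 for all genes tested. Veh replicate 3 was the lowest of the 6 libraries for Fos, Fosb, Fosl2 and Egr1 and the highest for Fosl1, Gadd45b and Jund. Its share of mitochondrial counts was 4.81%, against 3.94% to 4.35% in the other five libraries, and the part of this in the results was not tested. Likeness between genes was measured as the root mean square difference of their log2 CPM deviations over the 6 libraries, where a small value means a like pattern. Fos and Fosb were nearest to each other (0.16), Egr1 was nearest to Fos (0.18), and Fosl1 was nearest to Jun and Gadd45b nearest to Fosl1 (0.12 each). Junb and Jund were both nearest to Atf3 (0.09 and 0.13). Among other genes with a mean of at least 1 CPM, the nearest to Fos were Slc3a1 (0.08), Gimap7 (0.09) and Ypel1 (0.12), none of which passed the test.

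**Figure D4:**
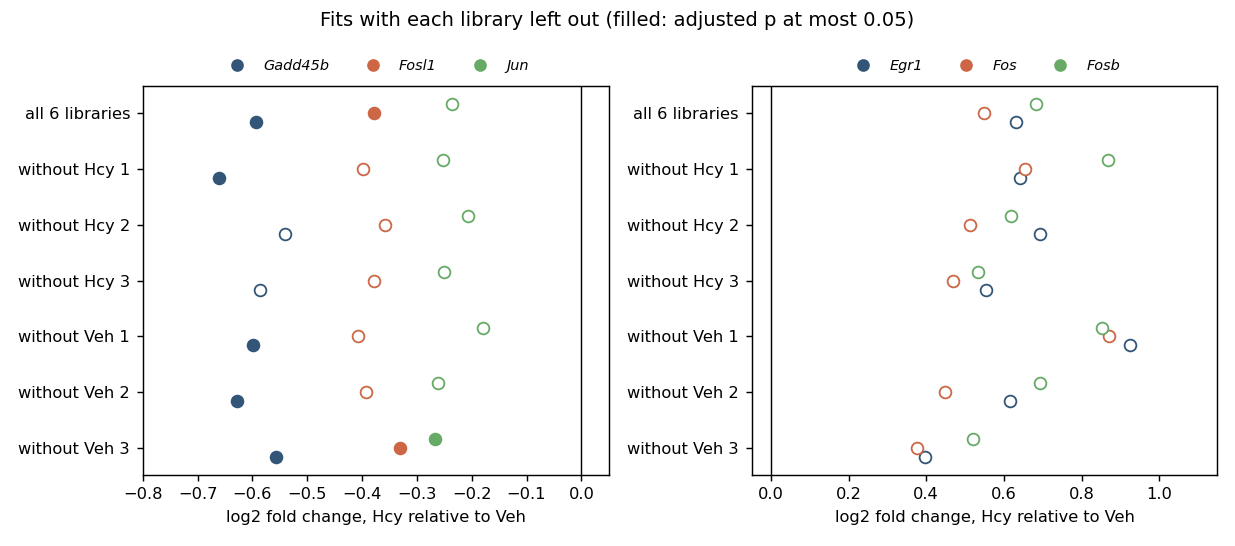
Log2 fold change in Hcy relative to Veh with all 6 libraries and with each left out, for Gadd45b, Fosl1 and Jun (left) and for Egr1, Fos and Fosb (right), which had positive fold changes. Filled points mark an adjusted p of at most 0.05. Each of these 6 genes keeps its sign, Fosl1 is filled only with all libraries and without Veh replicate 3, and the genes on the right are never filled.

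Genes with related roles were counted by the same test. Among the other bZIP proteins that pair with FOS or JUN, 10 were tested, and Maff and Mafk, small MAF proteins without a transactivation domain, were lower in Hcy while the other 8 did not pass, against 1.01% of all genes tested called as lower. Maff was at 620, 619 and 643 CPM in Veh replicates 1, 2 and 3 and at 496, 489 and 498 CPM in Hcy replicates 1, 2 and 3. The groups were well apart, at a log2 difference of -0.34 with a standard error of 0.06 (edgeR adjusted p = 0.0209). Mafk had a log2 fold change of -0.36 (adjusted p = 0.0303), and both lost the call in 5 of the 6 fits with a library dropped, all but that without Veh replicate 3, up to an adjusted p of 0.136 for Maff and 0.163 for Mafk, without Hcy replicates 3 and 1 respectively. Jdp2, which encodes a repressor of AP-1, was at 11.6 ± 0.831 CPM (SD, n = 3) in Veh and 16.1 ± 0.472 CPM (SD, n = 3) in Hcy and did not pass (adjusted p = 0.0702 from edgeR). Atf2 had a log2 fold change of -0.13 and an adjusted p of 0.737.

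Of 23 other immediate early genes tested, 3 were lower in Hcy, 0 were higher and 20 did not pass, against 1.01% of all genes tested called as lower and 1.32% as higher. Klf4 and Klf2, which encode Krüppel-like factors that restrain inflammatory genes in endothelium under flow, were both among the 3. Klf4 was at 38.5, 37.0 and 36.3 CPM in Veh and at 16.5, 19.6 and 21.6 CPM in Hcy, a log2 difference of -0.95 with a standard error of 0.11 (edgeR adjusted p = 0.00415). It passed in every alternative fit. Klf2 was at 53.2 ± 3.53 CPM (SD, n = 3) in Veh and fell to 37.0 ± 1.10 CPM (SD, n = 3) in Hcy, which is -0.52 on the log2 scale (edgeR adjusted p = 0.0129). Csrnp1, a nuclear protein gene induced by AXIN1, had a log2 fold change of -0.72 (adjusted p = 0.0128). With a library dropped, Klf2 kept the call in 2 of the 6 fits (without Veh replicates 2 and 3) and Csrnp1 in 1 (without Veh replicate 3), with the others up to an adjusted p of 0.0825 and 0.0708, again without Hcy replicates 3 and 1. Of those that did not pass, Plk2, Klf10 and Ier3 had the smallest p, with log2 fold changes of 0.27, -0.25 and -0.32. DESeq2, which called 4.14% of all genes tested, also called Plk2, as higher. Without Veh replicate 3, where edgeR called 6.67% of all genes, Plk2 passed as higher and Ccn2 as lower. The median of the 23 was -0.07.

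Upstream of these genes, 27 transcription factors and kinases of the SRF and MAP kinase routes were tested, among them Srf, Creb1, Mapk8 and Mapk14. Of these 0 were called in either direction by edgeR, and DESeq2 also called 0. An unadjusted p under 0.05 was found for 3 of the 27, close to the 13.4% of all genes tested. Those 3 were Map2k3, Elk4 and Map2k4, with log2 fold changes of -1.12, 0.25 and -0.18 and adjusted p of 0.292, 0.325 and 0.338. Map2k3 varied widely, from 7.05 to 29.7 CPM among the Hcy libraries and from 25.4 to 51.8 CPM among the Veh libraries. Of 19 feedback genes, which encode MAP kinase phosphatases, EGR corepressors, Sprouty proteins and mRNA decay factors, 1 was called, as higher, against 1.32% of all genes tested. This was Dusp2, a phosphatase of nuclear MAP kinases, which was at 18.4 ± 0.944 CPM (SD, n = 3) in Veh and rose to 26.7 ± 2.04 CPM (SD, n = 3) in Hcy. The log2 difference was 0.54 (edgeR adjusted p = 0.0300), and Dusp2 kept the call in 1 of the 6 fits with a library dropped, that without Veh replicate 3, with an adjusted p of up to 0.157 (without Hcy replicate 1). Dusp5, Nab2 and Dusp1 had log2 fold changes of -0.39, -0.40 and -0.15 and did not pass. Dusp5 did pass, as lower, by DESeq2 (4.14% of all genes called) and by edgeR without Veh replicate 3 (6.67%).

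Of 18 genes known as targets of AP-1, 5 were called, Mmp9 and Mmp10 as higher and Hmox1, Spp1 and Cd44 as lower in Hcy, where 2.34% of all genes tested were called, 1.32% as higher and 1.01% as lower. All 5 have other known regulators as well. The list was chosen with earlier results of these data known, and the study had picked Mmp9 and Spp1 for qRT-PCR. The count therefore cannot show an excess of AP-1 targets. In the order named, the log2 fold changes were 3.41, 1.17, -1.17, -1.74 and -0.91. The 2 higher genes were thinly covered. Mmp9 had 10 to 22 counts in Veh and 104 to 208 in Hcy, and Mmp10 had 26 to 47 and 67 to 90. Cd44, the hyaluronan receptor gene, was at 27.0 ± 0.543 CPM (SD, n = 3) in Veh and 14.4 ± 0.739 CPM (SD, n = 3) in Hcy (adjusted p = 0.00235 from edgeR). Mmp10 kept the call in 2 of the 6 fits with a library dropped (without Veh replicates 1 and 3) and reached an adjusted p of 0.187 without Hcy replicate 3, and the other four passed in every alternative fit. Mmp3, Hbegf and Ccl2 had the smallest p of the rest, with log2 fold changes of -0.72, -0.34 and 0.32 and adjusted p of 0.0535, 0.0753 and 0.0992. DESeq2, which called 4.14% of all genes tested, also called Mmp3 and Hbegf as lower and Ccl2 and Tgfb1 as higher. Ccnd1, Plau and Edn1 were also in the list and had log2 fold changes between -0.04 and 0.08. The median of the 18 was -0.05, with 6 above 0 and 12 below.

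**Figure D5:**
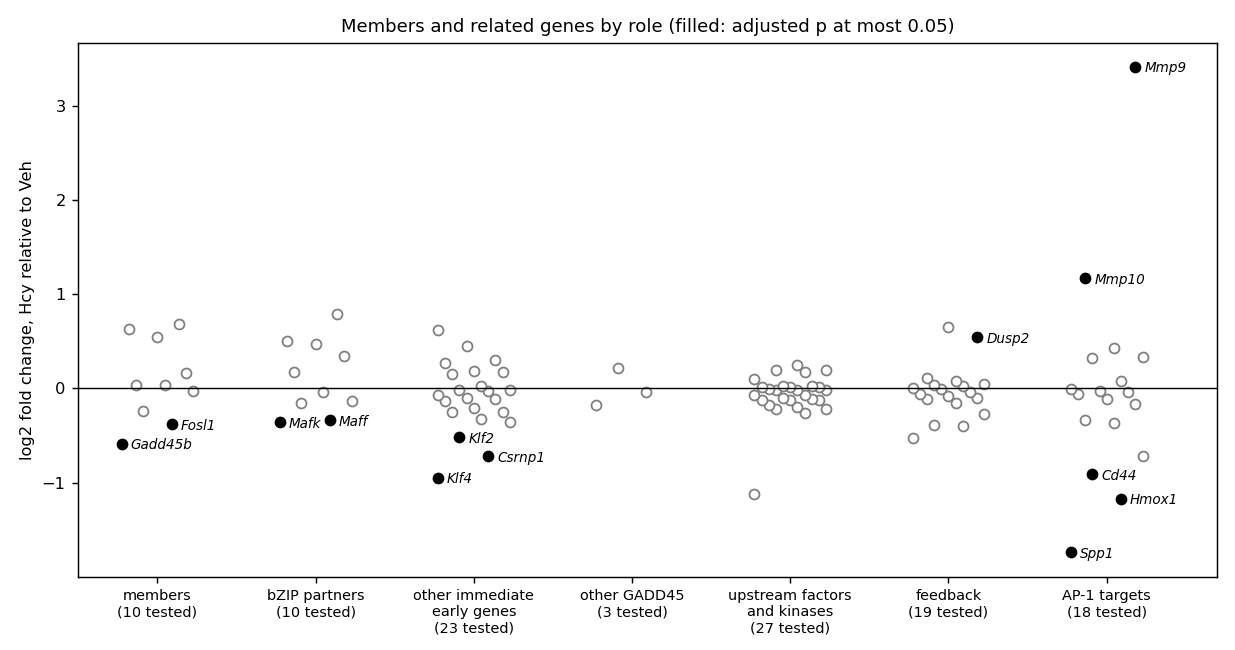
Log2 fold change in Hcy relative to Veh for the 10 members and for the related genes grouped by role, one point per gene, spread sideways for legibility. Filled, named points have an adjusted p of at most 0.05. In the lists of members, bZIP partners and other immediate early genes the filled points all lie below 0, in the upstream and other GADD45 lists there is none, and the AP-1 targets have filled points on both sides.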

How the data were processed

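The deposited values are raw read counts, made by the authors for 33566 genes in 6 libraries and listed with gene positions and lengths but no build. The submitters' processing notes name fastp, HISAT2 2.2.1, StringTie 2.2.3, Cufflinks, featureCounts 2.0.6, DESeq2 1.42.0, mRatBN7.2 and rn7. Whether counting used the strand is not given in the sources used here. None of the 10 genes overlaps another listed gene. The authors' DESeq2 table, with normalized values, fold changes and p-values, was not used.

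Genes whose counts summed to 10 or more (14603) were tested in R 4.3.3 with edgeR 4.0.16, using TMM factors, its quasi-likelihood test on a model of condition alone, and Benjamini-Hochberg adjustment. CPM is TMM-normalized, and standard errors and 95% intervals come from this fit. Group shares were compared with two-sided exact permutation tests. Alternatives were DESeq2 1.42.0, its size factors, library totals alone, 2 other count filters, a prior count of 2, the replicate number as a block, and each library left out.

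All members are named, with, from each role list, the called genes and the 3 others with the smallest p; Srf, Creb1, Mapk8, Mapk14, Ccnd1, Plau and Edn1 were added after their values were seen. Some genes that the rule names are not reported here. The members and lists were chosen with earlier results of these data known. The labels call the libraries biological replicates without naming separate isolations, so p-values measure the spread between these libraries.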

Additional observations from a re-analysis of the deposited data

How the results depend on the processing

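The number of members called at an adjusted p of at most 0.05 was 2 in the fits with other scalings, count filters, prior count or DESeq2. With each library left out in turn it ran from 0 to 3, and it was 0 without Hcy replicate 2 and without Hcy replicate 3. In those fits fewer genes were called in all, between 80 and 151, except without Veh replicate 3, where 957 were called. The related genes called numbered 11 with edgeR on all libraries and 17 with DESeq2, and between 5 and 18 with a library left out. Of all genes tested, edgeR called 341 (2.34%) and DESeq2 604 (4.14%). With the fold threshold the count of members was 0 in each of these settings. Leaving out single libraries turned the sign of 3 members, with log2 fold changes from -0.10 to 0.34 for Fosl2, from -0.032 to 0.13 for Junb and from -0.12 to 0.036 for Jund, and the cause was not tested. The other 7 members kept their sign in all 13 alternatives.

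The replicate number as a block left 1 member called, Gadd45b, and 8 related genes, with Fosl1 at an adjusted p of 0.0733 from edgeR. Mafk, Dusp2 and Mmp10 also lost the call. Of all genes tested, 298 (2.04%) were called with the block and 341 (2.34%) without it. Same-numbered Hcy and Veh libraries had correlations of 0.024, 0.166 and 0.058 between their deviations from the group means, and 3 of the 6 libraries correlated best with their own number, so the numbers were not taken to pair the libraries. Fos and Fosb rest on 34 to 104 counts a library, so counting error is a larger part of their values than of the other members', and how far depth bears on their tests was not tested.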
